A study of Mus musculus with 8 samples.

Results

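The genes described here are the main apolipoprotein genes of the liver and Mttp, whose product loads lipid onto them: Apob and Mttp for the assembly of particles, Apoa1, Apoa2 and Apom of high-density lipoprotein, Apoa4 and Apoa5, Apoc2 and Apoc3, and Apoe. The rule names them by function and uses no measured value, although earlier results of these data were known when they were chosen. All 10 of 10 were found, each by 1 probe set of a single gene symbol, among 22180 genes measured in mouse liver. Liver RNA of 4 Sco1 knockout mice and 4 wild-type mice of strain C57BL/6N, all aged 27 days, was hybridised to 1 whole-transcript expression array per mouse. The knockout mice had the genotype Albumin-Cretg/wt:Sco1fl/fl, that is, a Cre transgene that the albumin promoter switches on in hepatocytes, together with 2 floxed Sco1 alleles. Sco1 delivers copper to cytochrome c oxidase inside mitochondria. The wild-type group was mixed by its genotype labels: mice 1 and 3 were Albumin-Cretg/wt:Sco1fl/wt, with Cre and 1 floxed allele, and mice 2 and 4 were Albumin-Crewt/wt:Sco1fl/fl, without Cre and with 2 floxed alleles. The sample titles disagree and name all 4 as Sco1fl/fl, so the split into control classes used below rests on the genotype labels alone. By those labels all 8 mice carried at least 1 floxed allele. The albumin promoter directs Cre mainly to hepatocytes, and Sco1 in other liver cells was not measured separately. No label says that the mice came from separate litters, so the tests measure the spread between these 8 mice.

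Lipoproteins carry triglyceride and cholesterol through the blood. The hepatocyte builds very-low-density lipoprotein around 1 molecule of apolipoprotein B, to which the microsomal triglyceride transfer protein Mttp adds lipid in the endoplasmic reticulum, and it secretes the apolipoproteins of high-density lipoprotein. Once in plasma, the smaller apolipoproteins steer the particles: Apoc2 activates lipoprotein lipase, Apoc3 restrains it, Apoa5 promotes it, and Apoe is the ligand by which remnants are taken up again. The question put to the arrays here is how far the RNA of these genes differs when hepatocytes lack Sco1.

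Values are log2 units of the deposited RMA table, in which 1 unit is a 2-fold difference and the highest value is 13.88. Differences are knockout minus wild-type, with a standard error (SE) or a 95% interval from a limma fit over all genes, and a gene was called at an adjusted p under 0.05. Sco1 itself read 7.48, 7.62, 7.72 and 7.56 in knockout mice 1 to 4, against 7.84, 7.93, 8.19 and 8.04 in wild-type mice 1 to 4, so that the groups did not overlap (difference -0.41, adjusted p = 0.0633); which exons its probes cover was not known. The 7 hepatocyte markers measured, among them Alb, Ttr and Cps1, had mean values between 10.7 and 13.8, and none was called. Marker lists of 10 other cell types or tissues, of 3 to 8 genes each, held no called gene either. Of all genes 1.15% were called, so the lack of calls in such short lists says little. Every marker measured had a difference above 0 in the Kupffer cell and macrophage, endothelial, lymphocyte, muscle, enterocyte and adipocyte lists. The stellate cell, cholangiocyte, neutrophil and pancreas lists went both ways, and 57.2% of all genes were above 0. Mouse 1 of both groups stood apart from the other 3 mice in the clock output gene Dbp, at 9.66 in knockout mouse 1, with 6.87 to 7.33 in the other knockout mice, and at 9.86 in wild-type mouse 1, with 7.08 to 7.33 in the other wild-type mice. The mean of 3 Y-linked genes was 7.36 in knockout mouse 4, with 8.60 to 8.72 in the other knockout mice and 8.60 to 8.86 in the wild-type mice. Where leaving out mouse 1 of both groups, knockout mouse 4 or another array moved a member's difference most, that value is given beside it.

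No apolipoprotein gene and not Mttp was called between knockout and wild-type livers. Of the 10 genes 0 passed at an adjusted p under 0.05, against 1.15% of all genes, and 1 passed at an unadjusted p under 0.05 in limma, against 16.7% of all genes. Differences ran from -0.22 for Apom to 0.11 for Apoc2, with 3 above 0 and 7 below 0. Their median was -0.03, beside 0.03 over all genes and -0.02 over the brighter 11090 genes, where all 10 lie, and their median absolute difference was 0.05, beside 0.11 over all genes. The 95% interval of all 10 lay within 0.5 log2 units of 0, which held for 85.4% of all genes. Knockout and wild-type values did not overlap for 1 of the 10, Apom, against 10.7% of all genes. A p that misses the threshold does not show that the levels are equal; the intervals given below state how far each gene could have moved.

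**Figure D1:**
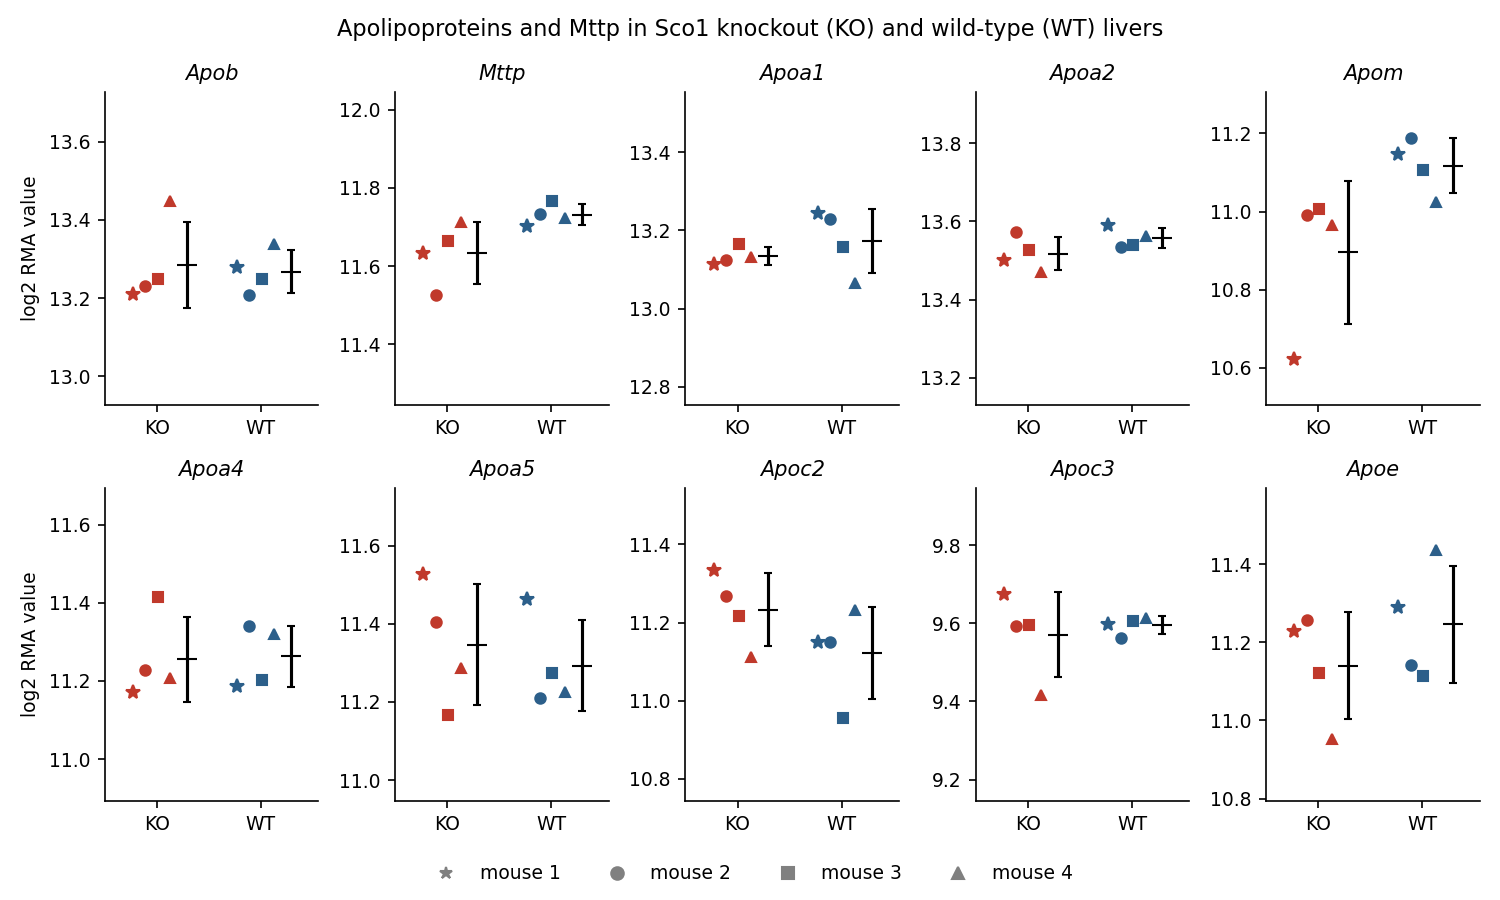
Log2 RMA values of the 10 genes (vertical axes, each spanning 0.8 log2 units) in knockout (KO, left, red) and wild-type (WT, right, blue) livers, with 1 point per mouse, the marker shape giving the mouse number, and the black bar giving the group mean with its SD (n = 4 each). The groups overlap in every panel but that of Apom, where the 4 knockout points lie at or below 11.01 and the 4 wild-type points at or above 11.02.

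Apob encodes the one protein that a very-low-density particle cannot be built without. Its values were 13.21, 13.23, 13.25 and 13.45 in knockout mice 1 to 4, against 13.28, 13.21, 13.25 and 13.34 in wild-type mice 1 to 4. Mouse 4 was the highest of its group in both, knockout mouse 4 stood 0.85 of the group's range above the next knockout mouse, and the groups overlapped widely. The knockout mean was 101% of the wild-type mean, with an interval of 89.7% to 114% (difference 0.02, adjusted p = 0.94); the sign turned to -0.01 when arrays were centred on their medians and to -0.04 without knockout mouse 4.

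Mttp read 11.63, 11.52, 11.66 and 11.71 in knockout mice, against 11.70, 11.73, 11.77 and 11.72 in wild-type mice. Knockout mice 1, 2 and 3 lay below all wild-type mice, and knockout mouse 4 lay among them. The knockout group averaged 11.63 ± 0.08 and the wild-type group 11.73 ± 0.03 (SD, n = 4 each), a knockout level of 93.5% of wild-type with an interval of 83.8% to 104% (adjusted p = 0.521). The difference was -0.10, and -0.061 without knockout mouse 2. P4hb, the protein disulfide isomerase that forms the second subunit of the transfer protein, is no member of the set and came from a wider list of lipoprotein genes. It read 12.25, 12.53, 12.57 and 12.54 in knockout mice, against 12.66, 12.81, 12.74 and 12.76 in wild-type mice. Its groups did not overlap, and the difference of -0.27 ± 0.09 (SE) did not pass (adjusted p = 0.169).

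The genes of high-density lipoprotein came next. Apoa1, the main structural protein of these particles and the activator of the cholesterol-esterifying enzyme Lcat, read 13.11, 13.12, 13.17 and 13.13 in knockout mice, against 13.24, 13.23, 13.16 and 13.06 in wild-type mice. The 4 knockout values lay inside the wild-type range and were closer together, with an SD of 0.02 in knockout and 0.08 in wild-type mice. The difference was -0.04 (adjusted p = 0.81), and the knockout level lay between 87.1% and 109% of wild-type. Without mouse 1 of both groups the difference was -0.0098, and without wild-type mouse 4 it was -0.077.

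Apoa2 encodes the other abundant protein of these particles. It had 13.50, 13.57, 13.53 and 13.47 in knockout mice, against 13.59, 13.53, 13.54 and 13.56 in wild-type mice. The groups overlapped, with the lowest value in knockout mouse 4 and the highest in wild-type mouse 1, and the whole range over 8 mice was 0.12. The difference was -0.04, with the knockout level between 87.8% and 108% of wild-type (adjusted p = 0.798). It was -0.058 without knockout mouse 2, -0.024 without knockout mouse 4 and -0.022 without mouse 1 of both groups.

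Apom encodes a small lipocalin that rides on high-density lipoprotein and binds sphingosine phosphate. It read 10.62, 10.99, 11.01 and 10.96 in knockout mice, against 11.15, 11.19, 11.11 and 11.02 in wild-type mice. All 4 knockout values were below all 4 wild-type values, but knockout mice 2 and 3 lay just under wild-type mouse 4, and knockout mouse 1 lay far below the rest. The knockout level was 85.8% of wild-type, with an interval of 74.0% to 99.5%, a difference of -0.22 ± 0.10 (SE) that did not pass over all genes (adjusted p = 0.285; 0.211 to 0.564 over 19 alternative settings). Without knockout mouse 1 the difference was -0.13 (adjusted p = 0.461), and without mouse 1 of both groups it was -0.12. Apom had the widest spread of the 10, with an SD of 0.17 over the 8 arrays.

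The profiles over the 8 arrays that lay nearest to that of Apom, each gene taken relative to its own mean, were those of Mpnd, Olfr699 and Metrn, at root mean square distances of 0.038, 0.040 and 0.040 log2 units. Mpnd read 8.02, 8.35, 8.35 and 8.28 in knockout mice, against 8.57, 8.51, 8.46 and 8.43 in wild-type mice. Like Apom it was lowest in knockout mouse 1, as were Olfr699 and Metrn. Olfr699, an olfactory receptor gene, averaged 4.17 in knockout mice and 4.44 in wild-type mice, near the bottom of the array's range. None of the 3 was called (adjusted p = 0.208, 0.167 and 0.367).

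**Figure D2:**
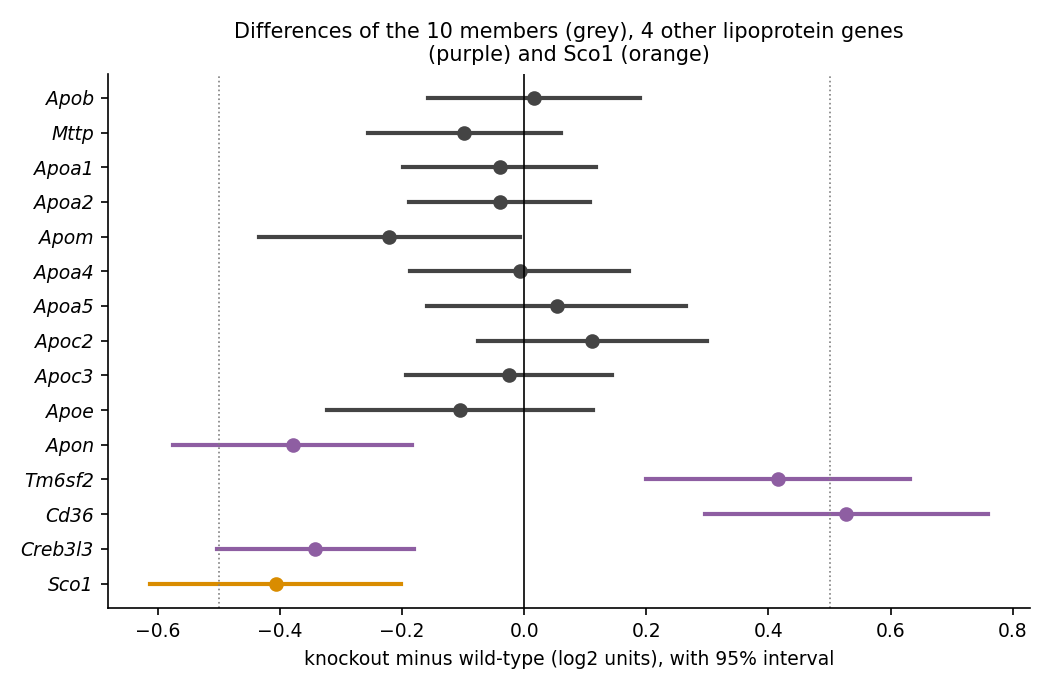
Differences between knockout and wild-type livers (horizontal axis, log2 units; points) with 95% intervals from limma (lines) for the 10 genes in dark grey, 4 other lipoprotein genes in purple and Sco1 in orange; dotted lines mark 0.5 log2 units on either side of 0. All 10 grey intervals lie between the dotted lines, and Apom is the one whose interval, -0.43 to -0.01, leaves out 0.

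Apoa4 and Apoa5 lie next to each other on chromosome 9, in a row of coding genes that runs Apoa1, Apoc3, Apoa4, Apoa5 in the RefSeq annotation of GRCm38.p6. Apoa4 encodes a protein of triglyceride-rich particles that the intestine makes as well as the liver. It read 11.17, 11.23, 11.42 and 11.21 in knockout mice, against 11.19, 11.34, 11.20 and 11.32 in wild-type mice. The values interleaved, and mouse 1 was the lowest of its group in both. The knockout level was 99.5% of wild-type, between 87.9% and 113%, and the sign of the difference of -0.01 turned under several alternatives (adjusted p = 0.974). Without knockout mouse 3 the difference was -0.060.

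Apoa5 encodes a scarce plasma protein that promotes the clearance of triglyceride by lipoprotein lipase. It had 11.53, 11.41, 11.17 and 11.29 in knockout mice, against 11.46, 11.21, 11.27 and 11.22 in wild-type mice. Mouse 1 was the highest of its group in both, and the groups overlapped. The knockout level lay between 89.6% and 120% of wild-type (difference 0.05, adjusted p = 0.812), and the sign turned to -0.02 against the Cre-carrying controls alone and to -0.0068 without knockout mouse 1.

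For these neighbours mouse 1 was the lowest of both groups in Apoa4 and the highest of both groups in Apoa5. They are described for that after their values were seen. In Apoa4 the next mouse was close, with 11.17 and 11.21 in knockout mice 1 and 4 and 11.19 and 11.20 in wild-type mice 1 and 3. Apoa5 was higher in mouse 1 than the mean of the other 3 mice by 0.24 in the knockout group and by 0.23 in the wild-type group, while the knockout and wild-type groups differed by 0.05. Apoa4 differed the other way, by -0.11 in knockout and by -0.10 in wild-type mouse 1. They were 2 of the 10 genes for which mouse 1 lay outside the other 3 mice of its group, on the same side in both groups, which held for 19.3% of all genes and is thus near the background; Apoa1 and Apoc3 in the same row of genes did not show it; for mouse numbers 2, 3 and 4 the share was 10.5%, 10.6% and 11.3% of all genes, with 0, 0 and 1 of the 10, the last being Apob. In the wider list of 69 lipoprotein genes mouse 1 lay outside the other 3 in this way for 27, and mice 2, 3 and 4 for 3, 4 and 3. Among them were Abcg5 and Abcg8, the paired sterol exporters of the canalicular membrane, and Angptl4, an inhibitor of lipoprotein lipase, all 3 named here after their values were seen.

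Abcg8 read 10.90 in knockout mouse 1, with 9.91 to 10.20 in the other knockout mice, and 10.93 in wild-type mouse 1, with 9.95 to 10.12 in the other wild-type mice. For Abcg5, mouse 1 stood 0.58 above the mean of the other 3 in the knockout group and 0.49 above it in the wild-type group, and for Angptl4 the steps were 0.65 and 0.97. Dbp, whose RNA swings over the day, stood higher by 2.50 in knockout and by 2.68 in wild-type mouse 1. The labels give no time of collection and no litter, and the part of either in these values was not tested. Without mouse 1 of both groups the differences between knockout and wild-type were -0.0041 for Apoa4 and 0.05 for Apoa5, neither called.

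**Figure D3:**
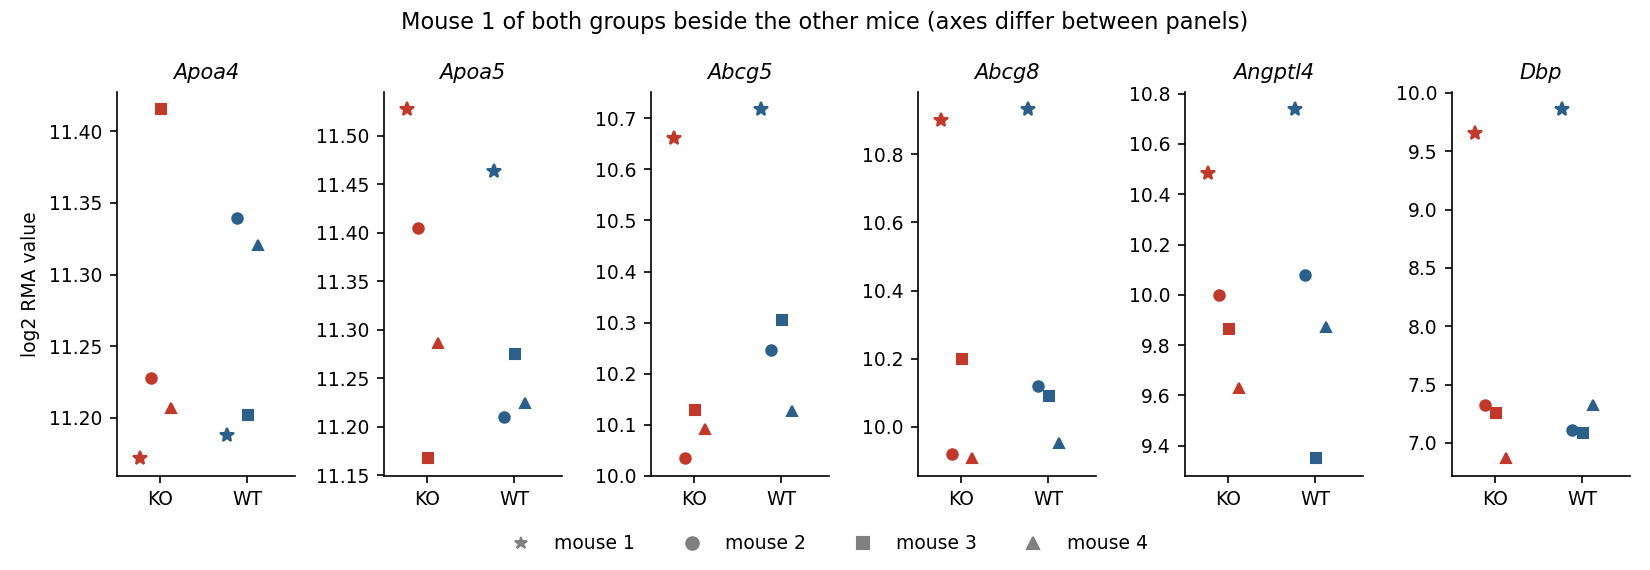
Log2 RMA values (vertical axes, which differ between panels) of Apoa4, Apoa5, Abcg5, Abcg8, Angptl4 and Dbp in knockout (KO, left, red) and wild-type (WT, right, blue) livers, 1 point per mouse, with stars for mouse 1. The star is the lowest point of both groups for Apoa4 and the highest point of both groups in the other 5 panels, reaching 9.66 in knockout and 9.86 in wild-type livers for Dbp.

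The promoters of Apoa5 and Apoa4 are shown because these neighbours stood on opposite sides in mouse 1, and that of Apom because it alone had groups that did not overlap. Each sequence is the 250 bases before an annotated start, on the gene's own strand and from the RefSeq table of build GRCm38.p6. Where a gene had several windows, the one of lowest coordinate is shown. Capitals mark every match to the 4 motifs searched.
Apoa5 (chr9:46268358-46268607, plus strand): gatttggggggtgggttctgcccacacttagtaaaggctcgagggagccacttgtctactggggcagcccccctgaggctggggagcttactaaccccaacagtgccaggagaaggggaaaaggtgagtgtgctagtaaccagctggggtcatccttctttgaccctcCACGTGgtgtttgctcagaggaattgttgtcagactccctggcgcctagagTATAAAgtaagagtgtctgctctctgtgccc
Apoa4 (chr9:46240594-46240843, plus strand): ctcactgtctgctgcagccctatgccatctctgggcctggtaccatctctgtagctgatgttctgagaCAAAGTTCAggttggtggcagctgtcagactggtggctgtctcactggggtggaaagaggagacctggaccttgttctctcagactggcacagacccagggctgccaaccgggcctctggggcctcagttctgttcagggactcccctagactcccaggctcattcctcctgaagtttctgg
Apom (chr17:35131802-35132051, minus strand): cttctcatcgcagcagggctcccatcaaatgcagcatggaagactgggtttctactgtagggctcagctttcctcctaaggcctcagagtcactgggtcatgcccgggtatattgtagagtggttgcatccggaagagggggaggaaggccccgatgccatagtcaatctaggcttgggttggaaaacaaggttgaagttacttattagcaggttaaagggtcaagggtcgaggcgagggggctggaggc

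The motifs were the TATA box TATAAA, the E-box CACGTG, to which the clock factors CLOCK and BMAL1 and the USF proteins bind, the D-box core TTANGTAA, to which DBP binds, and CAAAGNNCA, a core shared by sites of the hepatocyte factor HNF4A. They were searched on both strands, and their matches in these 3 windows did not overlap. Apoa5 held the E-box, 82 bases before the start shown, and a TATA box, 31 bases before it. From another annotated start of Apoa5 the same E-box lies 107 and the same TATA box 56 bases away. This E-box was found in 6.02% and the TATA box in 12.4% of the 32851 promoter windows. Apoa4 held 1 HNF4A core, 182 bases before the start, as did 5.49% of all windows. Apom held none of the 4 motifs, and the D-box core, present in 2.06% of all windows, was in none of the 13 windows of the 9 members that the table lists. A match describes letters in this window and is neither a site in use nor a cause.

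Apoc2 encodes the cofactor that lipoprotein lipase needs. It read 11.33, 11.27, 11.22 and 11.11 in knockout mice, against 11.15, 11.15, 10.96 and 11.23 in wild-type mice. Knockout mice 1 and 2 were above every wild-type mouse, and the groups overlapped through knockout mice 3 and 4. At 108% of wild-type, with an interval of 94.9% to 123%, it had the highest difference of the 10 (0.11, adjusted p = 0.539). The difference was 0.056 without wild-type mouse 3, 0.042 against the Cre-free controls and 0.18 against the Cre-carrying controls. In the annotation the transcript Gm44805 overlaps Apoc2, as Tomm40l overlaps Apoa2, and whether the probes also read these transcripts was not tested; a further probe set annotated to Apoc2 together with another gene was left out.

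Apoc3, which inhibits the lipase and slows the uptake of remnants, read 9.68, 9.59, 9.60 and 9.42 in knockout mice, against 9.60, 9.56, 9.61 and 9.61 in wild-type mice. Knockout mouse 4 was the lowest and knockout mouse 1 the highest of all 8, so that the wild-type range lay inside the knockout range. The knockout level lay between 87.5% and 111% of wild-type (difference -0.02, adjusted p = 0.904), and the sign turned to 0.03 without knockout mouse 4.

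Apoe encodes the ligand of the receptors that clear remnants, and macrophages make it as well as hepatocytes. Its values were 11.23, 11.26, 11.12 and 10.95 in knockout mice, against 11.29, 11.14, 11.11 and 11.44 in wild-type mice. The lowest value was in knockout mouse 4 and the highest in wild-type mouse 4, with the other 6 mice between them. The knockout level was 92.9% of wild-type, between 79.9% and 108% (adjusted p = 0.62). The difference of -0.11 shrank to -0.043 when knockout mouse 4 was left out and to -0.042 when wild-type mouse 4 was. All 8 Kupffer cell and macrophage markers measured had differences above 0, with a median of 0.14 and none called. Of the brighter 11090 genes, among which these markers lie, 44.5% had differences above 0, with a median of -0.02. The summed linear values of the markers ran from 7547 to 10052 in knockout and from 6705 to 9195 in wild-type livers. The part of these cells in the Apoe values was not tested. In RNA of whole liver, fewer cells of a type and less RNA per cell cannot be told apart.

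The neighbour of Apoe, Apoc1, is not among the 10. It had 13.13, 13.24, 13.15 and 13.24 in knockout mice, against 13.38, 13.28, 13.27 and 13.29 in wild-type mice, all knockout values lying below all wild-type values. Its difference of -0.11 did not pass (adjusted p = 0.438), and it is named here after its values were seen.

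Most of these probe sets were bright. Apoa1, Apoa2 and Apob lay above 13, where 75 of the 22180 genes lie, with 51, 14 and 36 genes brighter than them. Among these 75 genes 0 were called, 5 passed at an unadjusted p under 0.05 in limma, and the largest absolute difference was 0.19. Their median absolute difference was 0.05, and the median SD within groups was 0.04. Apoa4, Apoa5, Apoc2, Apoe, Apom and Mttp lay between 11 and 12 with 588 genes, of which 2.04% were called, with a median absolute difference of 0.11 and differences of up to 1.55. Apoc3 lay at 9.58, among 3048 genes between 9 and 11 of which 1.44% were called. Probes near saturation record less of an increase, and the part of this in the small differences of Apoa1, Apoa2 and Apob was not tested. Brightness also depends on the probes and gives no order of RNA amounts between genes.

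**Figure D4:**
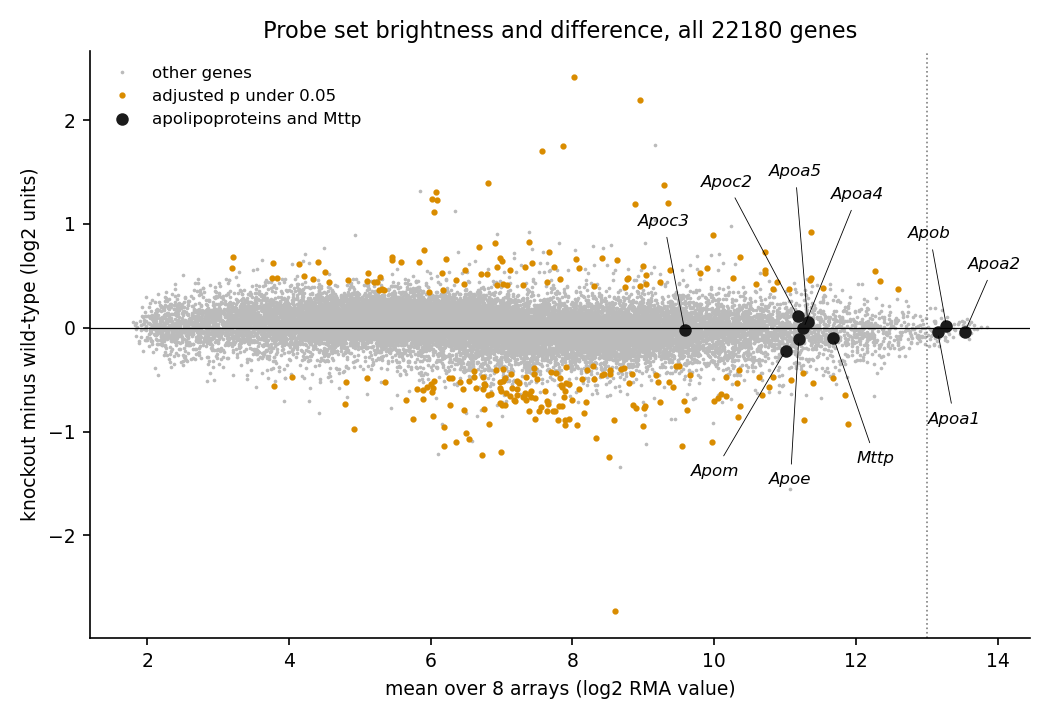
Difference between knockout and wild-type livers (vertical axis, log2 units) against the mean over 8 arrays (horizontal axis, log2 RMA value) for 22180 genes in grey, genes with an adjusted p under 0.05 in orange and the 10 genes in black; the dotted line marks 13. The 3 black points right of the line are Apoa1, Apob and Apoa2, and no orange point lies there.

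The control classes differ both in Cre and in the number of floxed Sco1 alleles, and the parts of these cannot be told apart. Sco1 averaged 8.01 in the Cre-carrying and 7.99 in the Cre-free controls. Whether the Cre-carrying controls had lost 1 Sco1 allele in hepatocytes was not tested. No member was called against either class of controls taken alone. Knockout mice differed from the Cre-free controls by -0.21 for Apom, 0.13 for Apoa5 and -0.15 for Apoe, and from the Cre-carrying controls by -0.23, -0.02 and -0.06 for the same genes. Between the classes themselves, Cre-carrying minus Cre-free, the 10 genes differed by -0.14 for Apoc2 and Apoa4 to 0.15 for Apoa5. None of the 22180 genes was called between the control classes (0%), and 671 passed at an unadjusted p under 0.05 in limma, 3.03% of all genes. With 2 mice in each class, the intervals of the 10 reached as low as -0.41 and as high as 0.46.

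The wider pathway was read from 5 lists of 69 measured genes. Of these 1 rose, none fell and 68 did not pass, where 0.433% of all genes rose and 0.717% fell. At an unadjusted p under 0.05 in limma 7 genes were higher and 6 lower, against 8.61% and 8.06% of all genes. The median difference was -0.05, and the groups did not overlap for 10 of the 69, or 14.5%, against 10.7% of all genes. All of the 69 but Apod and Nr2f1 lie among the brighter 11090 genes, which are the closer background. Of those 11090 genes 737 were higher and 1461 lower at an unadjusted p under 0.05 in limma. Their groups did not overlap for 1547, and their median difference was -0.02. The gene that rose was Cd36, in the list of receptors and lipid transporters, a scavenger receptor that takes up fatty acids and oxidised lipoprotein. It read 10.08, 9.97, 10.03 and 10.20 in knockout mice, against 9.79, 9.60, 9.46 and 9.31 in wild-type mice. Every knockout value was above every wild-type value, and the difference was 0.53 ± 0.11 (SE), or 144% of wild-type with an interval of 123% to 169% (adjusted p = 0.0425). The call stood at the edge of the threshold: it was lost without any 1 of the 4 knockout mice or of wild-type mice 2, 3 and 4 (adjusted p between 0.0668 and 0.119), without mouse 1 of both groups (0.0625), against the Cre-free controls alone (0.113), against the Cre-carrying controls alone (0.235) and with the mouse number as a block (adjusted p = 0.0732). The difference was 0.44 or more in all 19 alternatives. Endothelial cells, macrophages, fat and muscle also make Cd36. All 6 endothelial markers had differences above 0 with none called. They lie among the brighter 11090 genes, of which 44.5% had differences above 0. The sums of these markers ran from 8909 to 9859 in knockout and from 7747 to 8802 in wild-type livers, without overlap. The 4 adipocyte, 5 muscle and 5 lymphocyte markers, with means of at most 7.10, had differences above 0 with none called. Differences above 0 were found for 69.8% of the dimmer 11090 genes and for 44.5% of the brighter 11090. The adipocyte markers, Myh2, Myh4, Ckm, Cd79a and Ms4a1 lie among the dimmer genes. Acta1, Tnnt3, Cd3e, Cd3g and Nkg7 lie among the brighter genes. Adipocyte marker sums were 215 to 226 in knockout and 183 to 208 in wild-type livers. For muscle markers they were 352 to 468 in knockout and 315 to 344 in wild-type livers. For lymphocyte markers they were 487 to 629 in knockout and 428 to 457 in wild-type livers. The part of these cells in Cd36 was not tested. Vldlr, the receptor for very-low-density lipoprotein in other tissues, had the largest difference in the list, 0.61, and did not pass (adjusted p = 0.0565; named after its values were seen).

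Among 8 other apolipoprotein genes none was called, with a median of -0.09. Apon, an apolipoprotein gene, read 11.50, 11.70, 11.51 and 11.31 in knockout mice, against 11.85, 11.84, 11.91 and 11.94 in wild-type mice. Its groups did not overlap, and the difference of -0.38 ± 0.09 (SE), or 76.9% of wild-type, did not pass (adjusted p = 0.0676; 0.0284 to 0.267 over the alternatives). Saa4, a serum amyloid A of high-density lipoprotein that the liver makes at all times, differed by -0.19 (adjusted p = 0.237), again without overlap.

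Of 17 genes of assembly and secretion none was called, with a median of -0.07. Tm6sf2, a membrane protein of the endoplasmic reticulum that is needed to load very-low-density lipoprotein fully with lipid, read 11.94, 11.88, 11.95 and 11.60 in knockout mice, against 11.35, 11.48, 11.32 and 11.56 in wild-type mice. Knockout mouse 4 lay just above the highest wild-type mouse and the other 3 knockout mice well above it. The difference of 0.42 ± 0.10 (SE), or 133% of wild-type, missed the threshold (adjusted p = 0.0685). It passed in 4 of 19 alternatives, among them the one without knockout mouse 4 (0.50, adjusted p = 0.0395). Over the alternatives the adjusted p in limma ran from 0.0322 to 0.343. The difference was 0.32 against the Cre-free and 0.51 against the Cre-carrying controls.

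None of 10 genes of plasma remodelling was called, with a median of -0.03. Angptl8, which with a partner inhibits lipoprotein lipase, ranged from 9.76 to 10.20 in knockout mice and from 9.69 to 10.96 in wild-type mice (difference -0.42, adjusted p = 0.362). Leaving out wild-type mouse 2 gave -0.66, and leaving out wild-type mouse 3 gave -0.24. It was -0.11 against the Cre-free controls and -0.73 against the Cre-carrying controls, and the Cre-carrying controls averaged 10.7, against 10.1 in the Cre-free controls, a difference of 0.62 that did not pass in limma after adjustment over all genes. For Pon1, an esterase of high-density lipoprotein, the difference was -0.13 (adjusted p = 0.425), and -0.080 without mouse 1 of both groups.

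None of 22 transcription regulators was called, with a median of -0.03. Creb3l3, a factor released from the endoplasmic reticulum that activates Apoa4, Apoa5 and Apoc2 in mouse liver, read 10.95, 10.97, 11.08 and 11.13 in knockout mice, against 11.42, 11.33, 11.36 and 11.40 in wild-type mice. The groups lay apart, and the difference of -0.34 ± 0.07 (SE), or 78.9% of wild-type, just missed the threshold (adjusted p = 0.0535; 0.0193 to 0.241 over the alternatives). Its targets among the 10 differed by -0.01 for Apoa4, 0.05 for Apoa5 and 0.11 for Apoc2. Esrra, an orphan receptor of mitochondrial genes, differed by 0.25 (adjusted p = 0.142). Hnf4a, a main activator of apolipoprotein genes, was at 0.04 (adjusted p = 0.816; named after its values were seen).

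**Figure D5:**
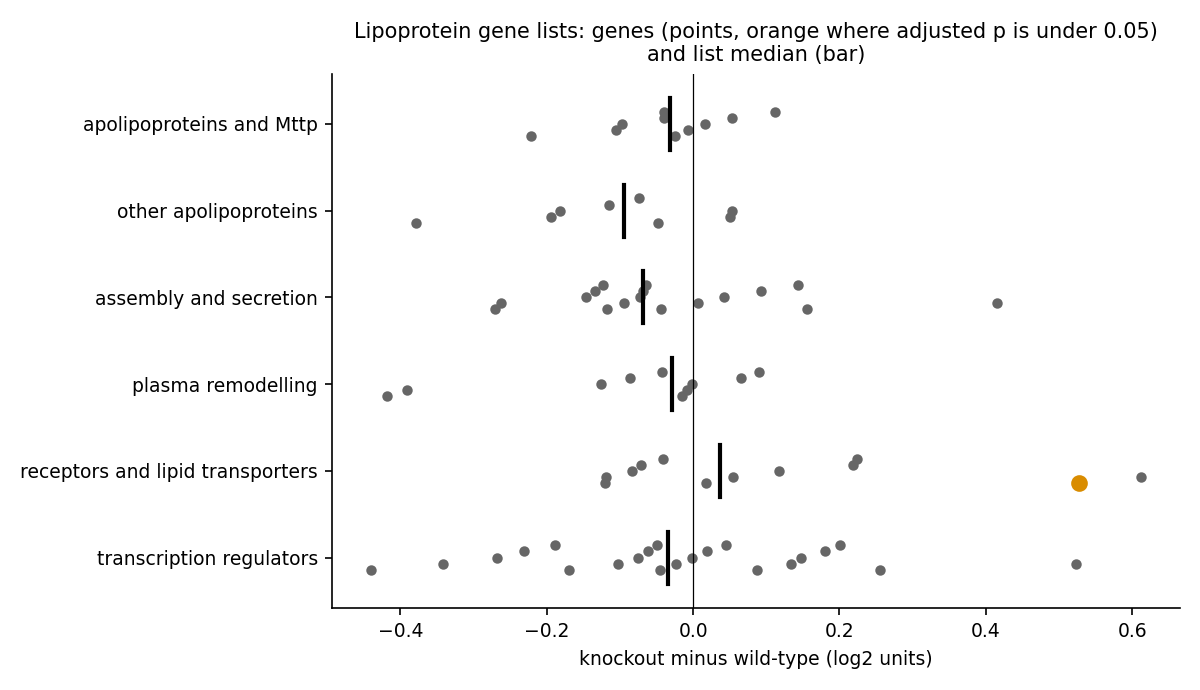
Differences between knockout and wild-type livers (horizontal axis, log2 units) of every measured gene in the 10-gene set and the 5 wider lists (rows), with black bars at the list medians and a larger orange point for Cd36, the gene with an adjusted p under 0.05. The 10 genes span -0.22 to 0.11, and the 69 others span -0.44 to 0.61.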

How the data were processed

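Total RNA of 8 livers was measured, 1 array each. The deposited values are log2 expression values made by the authors with RMA; the submitters' processing notes name oligo, version 1.24. RMA corrects background, normalizes arrays by quantiles and summarises probes, and it pulls large differences toward 0. The log2 scale was inferred from RMA and from the range of 1.28 to 13.88. Array medians were 5.79 to 5.89. The chip definition is not given in the sources used here. Of 39137 probe sets, 23521 had 1 gene symbol in the platform annotation, 1814 several and 13802 none; 23328 were found by gene number in GRCm38.p6, with no symbol changed. Where a gene had several probe sets (1082 genes), the brightest was used.

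Differences were fitted in R (version 4.3.3) by limma's lmFit and eBayes (version 3.58.1) as two-sided tests, with p-values adjusted by Benjamini-Hochberg over 22180 genes. A 3-group fit compared the control classes. The members and gene lists were chosen with earlier results of these data known. Genes were named as members, as called genes of a list (or its 2 of smallest adjusted p), or as the 3 nearest profiles to the member of widest spread; others are named as chosen later. The fit was tested on simulated data. The alternatives were a trended robust prior, centring, renewed quantile normalization, dim genes left out, 2 probe set rules, array weights, a mouse-number block, each control class alone, each array left out and, added after the data were seen, mouse 1 of both groups left out. The 4 arrays per group set the precision. Tables and plots used Python version 3.11.15, pandas version 2.3.3 and matplotlib version 3.10.9.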

Additional observations from a re-analysis of the deposited data

Results flagged for a closer look

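Values far from the other 3 mice of a group were looked for in the 23 named genes, in 46 groups of 4 mice, of which chance picks out about 5%; 5 were found, all in the knockout group. Apob stood at 13.45 in knockout mouse 4, with 13.25 in the next mouse. Apom stood at 10.62 in knockout mouse 1, with 10.96 in the next mouse. P4hb stood at 12.25 in knockout mouse 1, with 12.53 in the next mouse. Olfr699 and Metrn stood at 3.96 and 6.75 in knockout mouse 1, with 4.22 and 7.05 in the next mice; both were named for having a profile near that of Apom, so their low values there follow from that choice.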

How the results depend on the processing

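No member was called under any of the 19 alternatives. The members kept the sign of their difference in 176 of 190 member results; the 14 that turned were all near 0: Apoa4 at 0.021 with renewed quantile normalization, 0.0015 with array weights and 0.060 against the Cre-carrying controls, Apoa5 at -0.023 against the Cre-carrying controls, Apob at -0.013 with centred arrays, and the rest with an array left out, where the differences ran from -0.060 to 0.021 for Apoa4, -0.0068 to 0.11 for Apoa5, -0.038 to 0.041 for Apob and -0.059 to 0.027 for Apoc3. Of all genes 255 were called, against 459 with a trended robust prior, 442 with dim genes left out, 47 against the Cre-free and 29 against the Cre-carrying controls, 65 without mouse 1 of both groups, and 91 to 175 with 1 array left out. Of the 69 wider lipoprotein genes 1 was called, against 5 with a trended robust prior and 5 with dim genes left out (each time Apon, Cd36, Creb3l3, Tm6sf2 and Vldlr), 4 with array weights, 3 with centred arrays, 0 against either control class alone, 0 without mouse 1 of both groups, and 0 to 1 with 1 array left out. Same-numbered mice deviated from their group means with correlations over genes of 0.27, -0.02, 0.03 and -0.10 for numbers 1 to 4, so the numbers were not taken as pairs; with the mouse number as a block 210 genes, 0 members and 0 of the wider genes were called. Between control classes 0 genes were called under each alternative; with a control mouse left out, the lone mouse of its class was assumed to vary like the other groups.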
